A study of Mus musculus with 6 samples.

Results

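MHC class I molecules display short peptides from a cell's own proteins at the surface of nearly every nucleated cell, where CD8 T cells read them. Each molecule is a heavy chain, in mice of this strain made by *H2-K1* or *H2-D1*, held together with the light chain encoded by *B2m*. Peptides are cut by the proteasome, whose catalytic subunits can be exchanged for the immunoproteasome forms *Psmb8* and *Psmb9*, pumped into the endoplasmic reticulum by the transporter made of *Tap1* and *Tap2*, and fitted into the heavy chain with the help of tapasin, encoded by *Tapbp*. *Nlrc5* encodes the transactivator that switches on most of these genes together, and interferon-gamma raises them in most tissues. Healthy muscle fibers are known for low class I levels, while endothelial cells and leukocytes within muscle express the genes strongly.

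These 9 genes were chosen by symbol and followed in the soleus, a postural muscle of the calf with many slow fibers. All 9 were found in the deposited normalized table, which holds 16247 genes, and in the raw count table, which holds 51912. Polyadenylated RNA was sequenced from 3 heterozygous Mustn1 KO-first mice (HET) and 3 wild-type littermates (WT), all 8 weeks old and on the C57BL6/N background, with 1 library per mouse and no treatment named in the labels. The KO-first allele carries a lacZ and neomycin cassette designed to trap the *Mustn1* transcript, so HET mice keep 1 intact copy of this gene. The authors report that under some conditions the trap is not fully efficient. The gene encodes a microprotein that they report as secreted from smooth muscle cells, and its transcript is also present in muscle fibers. The question put to the data was whether the class I pathway differed between the genotypes.

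Libraries held 26790075 to 50368796 reads on genes. *Mustn1* itself measured 12.6, 16.8 and 13.1 CPM (counts scaled to a common library size with edgeR's TMM factors) in HET mice 1, 2 and 3, and 23.1, 29.0 and 30.5 in WT mice 1, 2 and 3. It was lower in every HET mouse, as the labels imply, with a log2 fold change of -0.96 (SE 0.15, adjusted p = 0.0452 in edgeR's quasi-likelihood test). The mice are labelled male, but each library held 3858 to 9154 reads on *Xist* and at most 12 on 4 Y-linked genes together. Those reads go against the male label in every library of both genotypes. The slow fiber genes of soleus were abundant in all mice, with summed levels of 37200 to 42300 CPM over 7 markers.

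Of the 9 genes, 7 lie in or beside the MHC on chromosome 17 (build GRCm38), and *Psmb9*, *Tap1*, *Psmb8* and *Tap2* lie side by side between positions 34181988 and 34216321. *Tapbp* lies at 33915899 to 33929288, *H2-K1* at 33996017 to 34000333 and *H2-D1* at 35262730 to 35267499. *B2m* lies on chromosome 2 at 122147686 to 122153083 and *Nlrc5* on chromosome 8 at 94434356 to 94527272. *Psmb9* and *Tap1* run in opposite directions with overlapping ends, and the counting was done by strand.

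The regulatory letters are shown first because *Nlrc5* acts through them. The class I enhanceosome, a complex of RFX, CREB/ATF and NF-Y factors, is known to sit on a promoter module whose X2 box has the core TGACG and whose Y box has the core ATTGG. RefSeq promoters of GRCm38.p6, with 250 bases before and 50 after the start site, were given for 7 of the 9 genes, not for *Tap2* and *Nlrc5*. Both cores were searched on either strand, and the module was taken as TGACG followed on the same strand by ATTGG with 18 to 22 bases between them. The spacing and letters were chosen after the promoters had been read. The module was present in the promoters of both heavy chains and of the light chain, and also in that of the class II gene *H2-Aa*, shown for comparison. Of the 4 class II genes with a RefSeq promoter, *H2-Aa* alone held it. In the lines below the 2 cores are in capitals, 5′ to 3′ on the strand of the gene.

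*H2-K1*, chr17:34000359-34000388, minus strand: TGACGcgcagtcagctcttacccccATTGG
*H2-D1*, chr17:35262993-35263022, plus strand: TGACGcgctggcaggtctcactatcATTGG
*B2m*, chr2:122147609-122147638, plus strand: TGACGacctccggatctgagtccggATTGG
*H2-Aa*, chr17:34287867-34287897, minus strand: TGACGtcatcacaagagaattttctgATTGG

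In the 3 class I genes 20 bases separate the cores, and in *H2-Aa* 21 do. The stretches of *H2-K1*, *B2m* and *H2-Aa* lie outside the exons of their genes in GENCODE M21. That of *H2-D1* lies in an exon of 1 transcript model, outside its coding bases. The module occurred in the promoters of 80 of 27025 genes with a RefSeq promoter, or 0.296%, a share that describes how common it is and tests nothing about the members, whose promoters set its letters. *Tap1* and *Psmb9* held both cores without the module, *Tapbp* held ATTGG alone, and *Psmb8* held neither. The windows of *Tap1* (34187306 to 34187605) and *Psmb9* (34187281 to 34187580) cover largely the same bases. Their matches are therefore not separate observations. TGACG was found in 20.8% of all promoters and ATTGG in 37.4%.

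Elements bound by interferon-regulated factors and NF-kB were sought in the same windows. GAANNGAAA, a short interferon-response form, was found in *H2-K1* and *H2-D1* and in 7.52% of all promoters. GAAANNGAAA, the classical form, was found in *B2m* and in 3.44% of all. GGGNNTTNCC, an NF-kB form, was found in the same 3 genes and in 4.79% of all, and no match of 1 form overlapped that of another. In *H2-K1* and *H2-D1* the NF-kB match reads GGGGATTCCC and the interferon match, read on the strand of the gene, TTTCACTTC, identical in both genes. These matches describe letters and show no binding.

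The 2 heavy chains also share coding sequence, which bears on how their reads were counted. Their longest coding transcripts agree at 985 of 1077 aligned bases, or 91.5%. The longest stretch identical in both is 91 bases in exon 4, which encodes the domain next to the membrane, and is printed once.

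Shared by *H2-K1*, chr17:33997343-33997433, minus strand, and *H2-D1*, chr17:35265911-35266001, plus strand: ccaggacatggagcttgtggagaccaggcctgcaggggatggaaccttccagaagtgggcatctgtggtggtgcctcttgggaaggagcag

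A read of 50 bases within that stretch fits both genes equally and was left out by the authors' counting. Of the 50-base windows in all annotated transcripts of *H2-K1*, 4.08% occur in *H2-D1*, and 9.63% occur in any other gene on either strand. For *H2-D1* these shares were 5.44% and 12.8%. None of the windows of *B2m* recurs elsewhere, and *Tapbp* had the highest share among the members with 23.2%, from overlapping and copied sequence.

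None of the 9 genes passed the threshold of 0.05 on the adjusted p of edgeR's quasi-likelihood test (smallest adjusted p = 0.327), beside 0.143% of the 14696 genes tested that were called higher in HET mice. All 9 had a log2 fold change above 0, where 45.6% of all tested genes did, and their median was 0.31 against -0.018 over all tested genes. With 1 mouse left out the median ran from 0.19 without WT mouse 1 to 0.43 without WT mouse 2. The genes share mice and libraries and follow one another, so that they do not count as 9 separate observations. At an unadjusted p under 0.05, 2 of the 9 were higher, *H2-K1* and *H2-D1*, where 5.76% of all genes were. In 2 of the 9, *H2-D1* and *Tap2*, every HET mouse lay above every WT mouse, where 7.55% of all genes showed this. In bulk muscle, more cells that express a gene and more RNA per cell cannot be told apart.

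**Figure D1:**
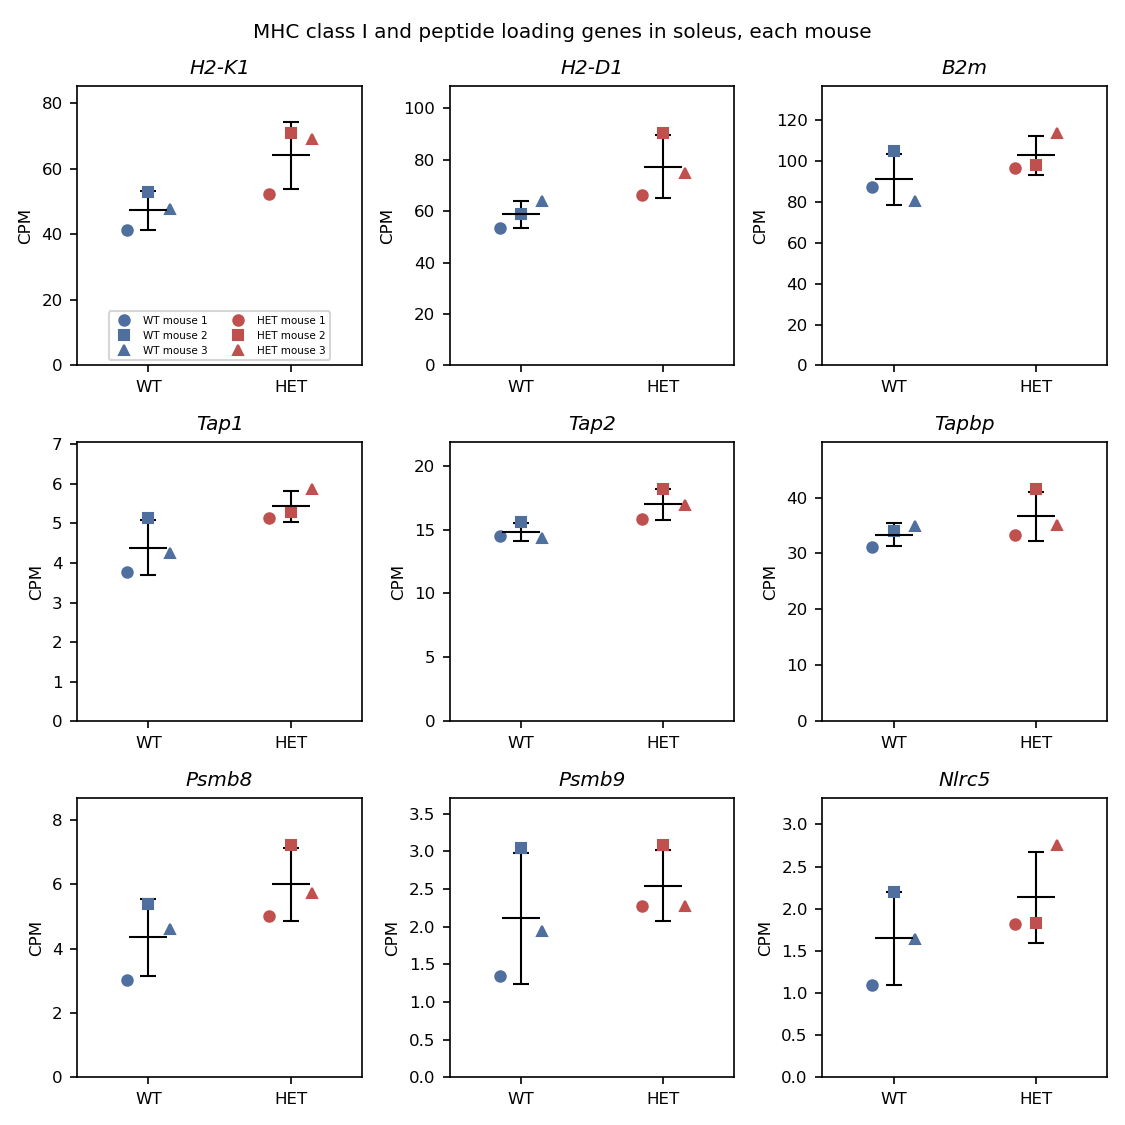
CPM of the 9 class I and peptide loading genes (y axis, from 0) in WT and HET soleus, with 1 point per mouse, the shape giving the mouse number, and lines for mean and SD of 3 mice. HET means lie above WT means in each panel, and the genotypes overlap in all panels except *H2-D1* and *Tap2*.

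The classical heavy chains had the smallest p-values of the 9 genes. *H2-K1* measured 52.4, 71.1 and 69.1 CPM in HET mice 1 to 3 and 41.2, 53.1 and 47.9 in WT mice 1 to 3. HET mice 2 and 3 lay above all WT mice, and HET mouse 1 lay just below WT mouse 2. The difference was 1.35-fold (log2 fold change 0.44, SE 0.13, adjusted p = 0.327 in edgeR).

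*H2-D1* measured 66.5, 90.6 and 74.9 CPM in HET mice and 53.4, 58.9 and 64.0 in WT mice. The genotypes did not overlap, although HET mouse 1 and WT mouse 3 were close. Its difference was 1.31-fold (log2 fold change 0.39, SE 0.12, adjusted p = 0.327 in edgeR). Of the 14 alternative settings run, both heavy chains passed the threshold in 1, with genes of few reads kept in the fit. There the adjusted p in edgeR was 0.0044 for *H2-K1* and 0.0143 for *H2-D1*. In that setting 386 of 29081 genes were called higher, against 21 of 14696 in the main fit.

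The balance of the 2 heavy chains was compared within each mouse as a ratio of length-scaled counts. The ratio of *H2-K1* to *H2-D1* was 0.779, 0.775 and 0.912 in HET mice and 0.763, 0.891 and 0.739 in WT mice. The genotypes overlapped, with WT mouse 2 inside the HET range and the other WT mice just below it, and a difference of 0.0244 (two-sided exact permutation p = 0.5, adjusted p = 0.5 over 5 ratios, 3 mice per genotype, where 0.1 is the smallest p possible). One mouse of each genotype, HET mouse 3 and WT mouse 2, stood above the other four. Without HET mouse 3 the difference was -0.0205, and without WT mouse 3 it was -0.00483, so its direction rested on single mice.

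*B2m*, the light chain without which heavy chains do not reach the surface, was the most abundant of the 9 by reads. It measured 96.5, 98.1 and 114 CPM in HET mice and 87.5, 105 and 80.6 in WT mice. WT mouse 2 exceeded HET mice 1 and 2, and the difference of 1.13-fold (log2 fold change 0.18, SE 0.11) had an adjusted p of 0.825 in edgeR. The log2 fold change was 0.09 without WT mouse 3 and 0.29 without WT mouse 2.

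The peptide transporter showed small differences. *Tap1*, which encodes 1 subunit, measured 5.13, 5.29 and 5.88 CPM in HET mice and 3.78, 5.14 and 4.25 in WT mice. Of the WT mice, mouse 2 alone reached the HET range, just above HET mouse 1. The log2 fold change was 0.31 (SE 0.17, adjusted p = 0.767 in edgeR).

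*Tap2*, the partner subunit, measured 15.8, 18.2 and 16.9 CPM in HET mice and 14.5, 15.6 and 14.3 in WT mice. All HET mice were above all WT mice, by a narrow margin between HET mouse 1 and WT mouse 2. The log2 fold change was 0.20 (SE 0.11, adjusted p = 0.767 in edgeR).

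*Tapbp*, whose product tapasin bridges the transporter and the heavy chain, measured 33.3, 41.6 and 35.1 CPM in HET mice and 31.1, 34.1 and 34.9 in WT mice. HET mouse 2 alone stood clear of the others. Its log2 fold change of 0.13 was the lowest of the 9 (SE 0.11, adjusted p = 0.872 in edgeR), and it was 0.05 without HET mouse 2.

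*Psmb8*, which encodes the chymotrypsin-like subunit of the immunoproteasome, measured 5.02, 7.23 and 5.74 CPM in HET mice and 3.04, 5.39 and 4.62 in WT mice. WT mouse 2 lay above HET mouse 1, and WT mouse 1 was the lowest of all. Its log2 fold change of 0.46 was the highest of the 9 over all mice (SE 0.22, adjusted p = 0.699 in edgeR), with 91 to 252 reads per library. It was 0.63 without WT mouse 2 and 0.26 without WT mouse 1, where *H2-K1* had 0.35.

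*Psmb9*, which encodes the subunit that takes the place of *Psmb6*, measured 2.27, 3.09 and 2.28 CPM in HET mice and 1.34, 3.05 and 1.94 in WT mice. WT mouse 2 came close to the highest HET mouse and exceeded the other two. The log2 fold change of 0.27 (SE 0.29, adjusted p = 0.912 in edgeR) was 0.04 without WT mouse 1 and 0.61 without WT mouse 2. The gene had 40 to 100 reads per library.

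*Nlrc5*, the transactivator, was the least abundant. It measured 1.82, 1.83 and 2.76 CPM in HET mice and 1.10, 2.20 and 1.64 in WT mice. HET mouse 3 was highest, WT mouse 2 lay above the other HET mice, and the log2 fold change was 0.38 (SE 0.29, adjusted p = 0.862 in edgeR). The log2 fold change was 0.15 without HET mouse 3 and 0.62 without WT mouse 2. The gene had 33 to 121 reads per library.

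Levels were put on a common scale as CPM per kilobase of merged exons, the length given in the count table. In WT mice *B2m* stood first at 106 ± 14.9 (SD, n = 3), far above *H2-D1* at 22.8 ± 2.06 and *H2-K1* at 18.2 ± 2.28. *Tapbp* followed at 10.1 ± 0.609, *Tap2* at 3.91 ± 0.181 and *Psmb8* at 1.59 ± 0.437. *Tap1* at 0.802 ± 0.126, *Psmb9* at 0.577 ± 0.237 and *Nlrc5* at 0.194 ± 0.0645 closed the order. The light chain thus exceeded both heavy chains together, and *Tap2* exceeded its partner *Tap1*. The only neighbours in this order whose WT values overlapped were *Tap1*, with 0.69, 0.939 and 0.777, and *Psmb9*, with 0.366, 0.834 and 0.532.

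Merged exons include retained introns, which lengthens some genes more than others. With the length of the longest coding transcript instead, the order in WT mice kept *B2m* first at 106, and *H2-K1* at 29.3 and *H2-D1* at 28.0 changed places. *Psmb9*, at 1.56, then stood above *Tap1*, at 1.49. The order within these pairs thus depended on the length used.

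The exchange of proteasome subunits was followed as the immunoproteasome share, the length-scaled counts of *Psmb8*, *Psmb9* and *Psmb10* as a percent of those plus *Psmb5*, *Psmb6* and *Psmb7*. *Psmb10* encodes the third immunoproteasome subunit, and the other three encode the constitutive subunits. The share was 7.16%, 7.86% and 8.09% in HET mice and 5.18%, 6.99% and 6.34% in WT mice. Constitutive subunits thus made up most of the catalytic subunit mRNA in every mouse.

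The genotypes did not overlap, with 7.70% ± 0.487 in HET and 6.17% ± 0.919 in WT mice (SD, n = 3). The difference of 1.53 percentage points had a two-sided exact permutation p of 0.1, the smallest that 3 against 3 mice can give, and an adjusted p of 0.167 over the 5 ratios compared. With transcript lengths in place of merged exons, without length scaling, or without *Psmb10* and *Psmb7*, WT mouse 2 overlapped the HET range and the exact permutation p was 0.2.

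By pairs, *Psmb8* per 100 *Psmb5* was 5.79, 7.44 and 7.27 in HET mice and 3.71, 5.70 and 4.58 in WT mice. The genotypes were separated by a narrow gap between HET mouse 1 and WT mouse 2. *Psmb10* per 100 *Psmb7* was 17.2, 19.3 and 19.1 in HET mice and 12.5, 16.0 and 15.7 in WT mice, again without overlap. Each of these pairs had an exact permutation p of 0.1 and an adjusted p of 0.167. *Psmb9* per 100 *Psmb6* was 1.26, 1.51 and 1.46 in HET mice and 0.665, 1.69 and 0.998 in WT mice, with overlap (exact permutation p = 0.4, adjusted p = 0.5).

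**Figure D2:**
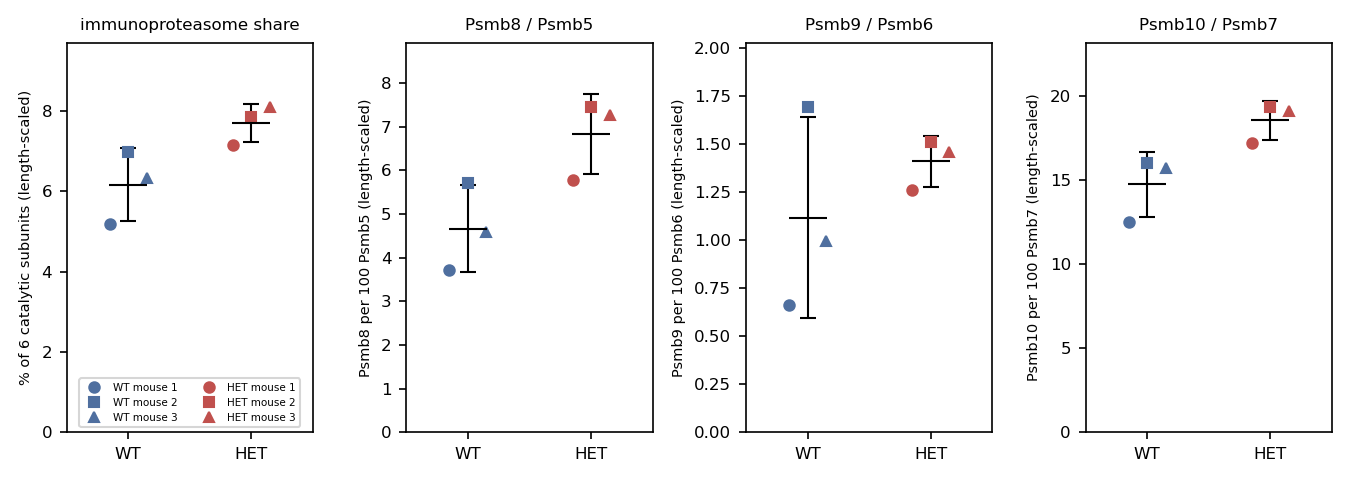
Immunoproteasome share in percent and the 3 ratios of an immunoproteasome subunit to the constitutive subunit it replaces (y axes, from 0, length-scaled counts), with 1 point per mouse and mean with SD of 3 mice. The share and the *Psmb8* and *Psmb10* ratios are higher in all HET mice than in all WT mice, and the *Psmb9* ratios overlap.

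The numerators and denominators of these ratios lay on different sides of 0. *Psmb10* had a log2 fold change of 0.15 (adjusted p = 0.878 in edgeR). *Psmb5*, *Psmb6* and *Psmb7* had -0.08, -0.09 and -0.18 (adjusted p = 0.935, 0.917 and 0.698 in edgeR). *Psmb7* was lower in every HET mouse, at 119 to 137 CPM against 141 to 155. The 11 shared subunits of the proteasome core were all below 0 and none passed the threshold, from -0.19 for *Psma2* to -0.06 for *Psmb4*. *Psme1* and *Psme2*, which encode the interferon-inducible cap that opens the proteasome, had log2 fold changes of -0.01 and 0.02, and with *Psmb10* gave 0 calls of 3.

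**Figure D3:**
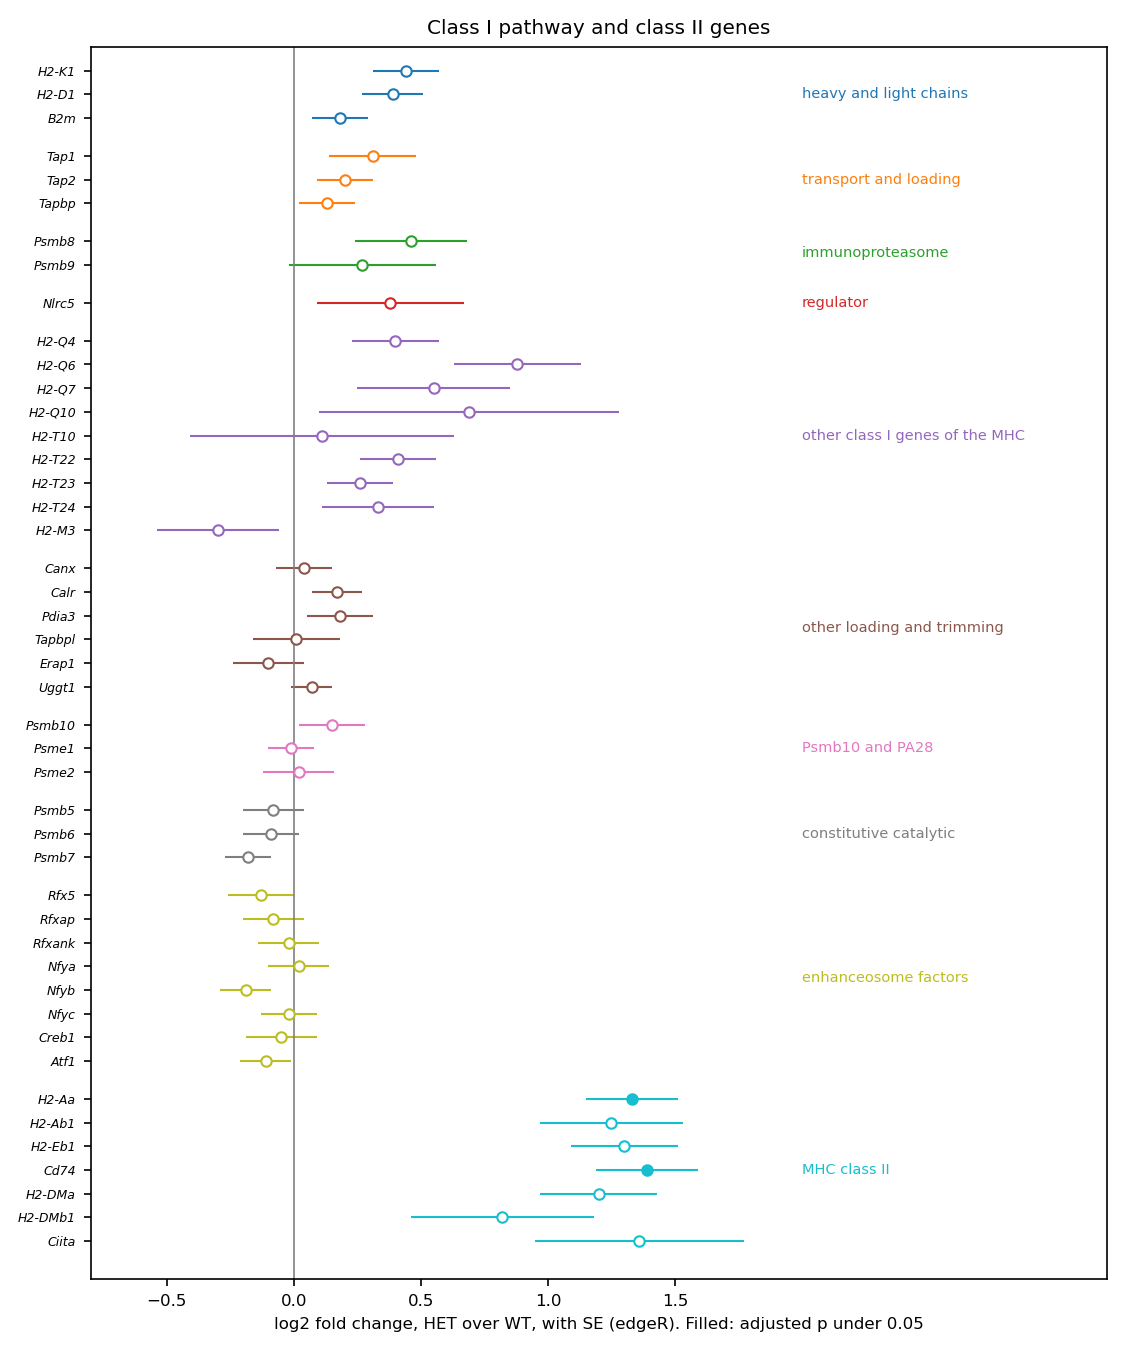
Log2 fold change of HET over WT with its SE from edgeR (x axis) for each tested gene of the class I pathway and of MHC class II (y axis, grouped by role), with filled points where the adjusted p is under 0.05. The 9 class I and loading genes lie between 0.13 and 0.46 with open points, the constitutive subunits below 0, and class II genes between 0.82 and 1.39 with filled points for *H2-Aa* and *Cd74*.

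Of 14 other class I genes of the MHC, 9 had enough reads to be tested, 8 of these were above 0 and 0 passed the threshold, with a median log2 fold change of 0.40. *H2-Q6*, a non-classical heavy chain gene, stood at the top of the list with 2.54, 2.91 and 3.17 CPM in HET mice and 1.94, 1.70 and 1.11 in WT mice. The genotypes did not overlap, and the log2 fold change was 0.88 (SE 0.25, adjusted p = 0.27 in edgeR). *H2-M3*, which presents formylated peptides, stood at the bottom with -0.30 (SE 0.24, adjusted p = 0.875 in edgeR). Of the 10 of these genes with a RefSeq promoter, 2 hold the module printed above, *H2-M3* and *H2-Q7*. Of the 50-base windows of *H2-Q6*, 35.0% recur in another gene, first of all *H2-Q7*, so its reads are less certain than those of *H2-K1*. *H2-Q1*, *H2-Q2*, *H2-T3*, *H2-M2* and *H2-Bl* had 0 to 14 reads per library and were not tested.

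Class I-like genes outside the MHC and the other loading genes gave 0 calls as well. Among 4 class I-like genes the ends were *Mr1*, which presents vitamin metabolites, at -0.13 and *Cd1d1*, which presents lipids, at 0.52 (SE 0.27, adjusted p = 0.735 in edgeR). *Cd1d1* was without overlap between the genotypes, at 1.84 to 2.61 CPM in HET and 1.03 to 1.78 in WT mice. Among 6 chaperones and trimming enzymes the ends were *Erap1*, the aminopeptidase that trims peptides, at -0.10 and *Pdia3*, the oxidoreductase of the loading complex, at 0.18, with a median of 0.06.

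The genes of the class I enhanceosome factors were measured too. Of the 8 enhanceosome genes 7 were below 0 and 0 passed the threshold, from *Nfyb*, an NF-Y subunit, at -0.19 to *Nfya* at 0.02. Of 13 genes of interferon reception and signalling 0 passed, from the receptor chain *Ifngr2* at -0.13 to the transcription factor *Stat2* at 0.28, with a median of 0.09. Of 12 interferon-gamma target genes 11 were tested and 0 passed, from the GTPase *Irgm1* at -0.06 to the GTPase *Igtp* at 0.27, with a median of 0.21.

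Class II genes, whose products present peptides from outside the cell and belong mainly to macrophages, dendritic cells and B cells, had larger log2 fold changes. All 7 were above 0, every HET mouse exceeded every WT mouse in each of the 7, and 2 passed the threshold. *Cd74*, the invariant chain, measured 27.6, 37.1 and 22.1 CPM in HET mice and 10.5, 13.4 and 9.30 in WT mice (log2 fold change 1.39, SE 0.20, adjusted p = 0.0452 in edgeR). *H2-Aa*, whose promoter holds the module as well, measured 12.4, 14.2 and 9.53 CPM in HET mice and 4.92, 5.53 and 3.99 in WT mice (log2 fold change 1.33, SE 0.18, adjusted p = 0.0425 in edgeR). Both calls were lost when any 1 mouse other than WT mouse 3 was left out, and 3 class II genes were called without WT mouse 3.

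*H2-DMb1*, at the low end of the list, had 0.82, and *Ciita*, the class II counterpart of *Nlrc5*, had 1.36 (SE 0.41, adjusted p = 0.314 in edgeR). Per 100 length-scaled counts of *H2-K1* and *H2-D1* there were 44.7, 43.4 and 29.6 counts of *H2-Aa*, *H2-Ab1* and *H2-Eb1* in HET mice and 25.2, 24 and 15.6 in WT mice. The ranges did not overlap, and since this ratio was formed after the values were seen it was not tested.

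Markers of cells that carry much class I were read beside these values. Summed over 5 pan-leukocyte genes, HET mice had 15.1 to 17.3 CPM and WT mice 5.65 to 7.73, and 2 of the 5 were called higher, *Laptm5* (log2 fold change 1.31) and *Coro1a* (log2 fold change 1.21), with *Cd52* at the upper end (1.82) and *Ptprc* at the lower (1.11). Summed over 10 macrophage genes, HET mice had 64.9 to 92.1 CPM and WT mice 42.1 to 48.7, and 4 were called higher, *Adgre1* (log2 fold change 1.61), *Csf1r* (1.39), *C1qa* (1.48) and *C1qb* (1.43). The ends of that list were *Fcgr1* at 2.14 and *Mertk* at -0.10. Without HET mouse 1, HET mouse 3, WT mouse 1 or WT mouse 2, 0 genes of any kind were called higher. Both sums were without overlap between the genotypes, and their part in the class I values was not tested.

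Lymphocytes left little trace. The 7 T cell markers summed to 0.447 to 0.706 CPM in HET and 0.334 to 0.674 in WT mice, the 5 NK cell markers to 0.182 to 0.298 and 0.0334 to 0.142, and the 4 B cell markers to 0.373 to 1.05 and 0.567 to 0.871. Of the T cell markers, *Cd4* and *Trac* were higher in every HET mouse, with 3 to 12 and 3 to 11 reads per library. The others overlapped between the genotypes, among them *Cd8b1* with 0 to 2 reads per library. The NK cell sums did not overlap between the genotypes, each marker had at most 5 reads per library, and their part in the class I values was not tested. Of 5 dendritic cell markers 2 could be tested, *Itgax* at 1.19 and *Zbtb46* at -0.25, and 0 passed. *Itgax* had 9 to 30 reads per library and was higher in every HET mouse, as was the untested *Xcr1* with 0 to 6 reads. *Zbtb46*, far more abundant with 240 to 552 reads per library, was lower in every HET mouse. The 8 endothelial markers, whose cells express class I strongly, summed to 538 to 670 CPM in HET and 556 to 715 in WT mice, with a median log2 fold change of -0.01, from *Cdh5* at -0.18 to *Cldn5* at 0.22. Here the genotypes overlapped and 0 passed the threshold.

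Connective tissue markers had log2 fold changes above 0 and gave 0 calls. The 6 fibroblast genes summed to 1300 to 1920 CPM in HET and 647 to 997 in WT mice, from *Dpt* at 0.56 to *Col1a1* at 1.23, and the 5 tenocyte genes to 327 to 583 and 103 to 265, from *Scx* at 0.15 to *Comp* at 1.85. The 7 slow fiber genes ran from *Tnnc1* at -0.17 to *Myh7* at 0.01. The 5 fast fiber genes ran from *Myh4* at -0.91 (SE 1.5) to *Tnnt3* at -0.15, and 0 of either fiber list passed. The part of these cells in the class I values was not tested.

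**Figure D4:**
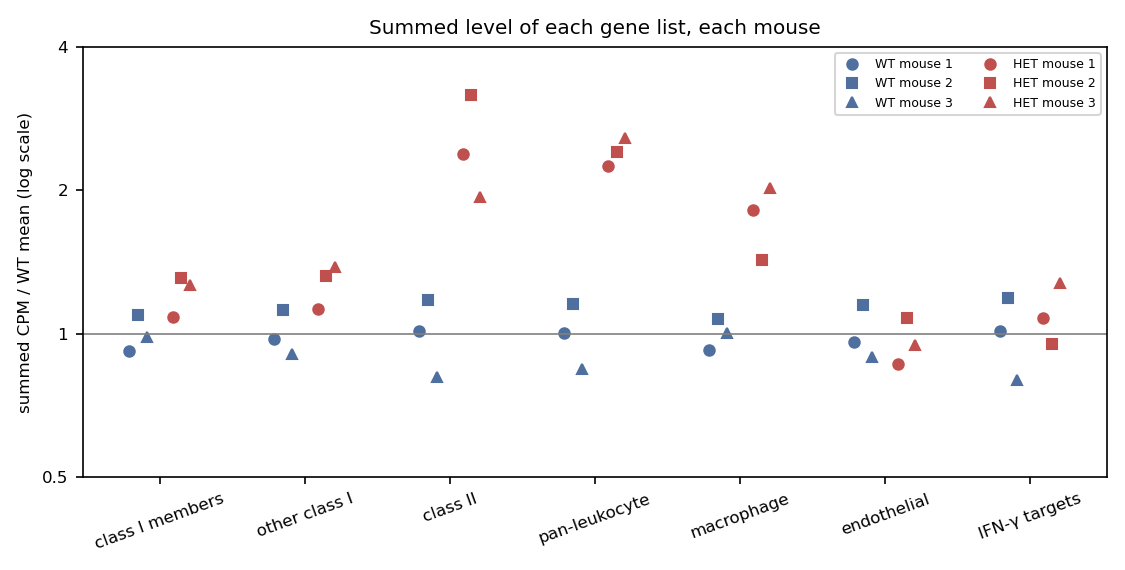
Summed CPM of each gene list in each mouse, divided by the mean of the 3 WT mice (y axis, log scale), for the 9 class I and loading genes, other class I genes, class II, pan-leukocyte, macrophage and endothelial markers and interferon-gamma targets. Class II and leukocyte sums separate the genotypes widely, and the sum of the 9 genes spans 279 to 337 CPM in HET and 237 to 283 in WT mice.

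The 9 genes followed one another across the mice. All 36 pairs had a Pearson correlation above 0 over the 6 mice, from 0.21 to 0.94 with a median of 0.77, on log2 CPM that share library and depth. HET mouse 2 was the highest of the 6 in 6 of the 9 genes and HET mouse 3 in the other 3. WT mouse 1 was the lowest in 7 of the 9, and WT mouse 2 was the highest WT mouse in 7. Summed over the 9 genes, HET mice 1 to 3 had 279, 337 and 327 CPM and WT mice 1 to 3 had 237, 283 and 254, so that WT mouse 2 lay above HET mouse 1. HET mouse 2, highest in the class I sum, was the lowest HET mouse in the macrophage sum, which was 82.5, 64.9 and 92.1 CPM in HET mice 1 to 3. The largest single part of that sum, *Mrc1*, measured 28.8, 16.5 and 33.8 CPM in HET mice 1 to 3. HET mouse 2 was the highest in the class II sum, which was 62.8, 83.7 and 51.0 CPM. Among the HET mice it was also the highest in the endothelial and tenocyte sums, and lay between the others in the pan-leukocyte and fibroblast sums. What these orders reflect was not tested.

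Over the 6 mice, the genes outside the 9 whose log2 CPM was most like the mean of their standardized levels were *Stx2* (Pearson's r = 0.995, Spearman's rho = 1), *Clec11a* (r = 0.994, rho = 1), *Fam32a* (r = 0.993, rho = 1), *Nkd2* (r = 0.991, rho = 0.943) and *Fam20a* (r = 0.991, rho = 1). None of these belongs to a list read here, and with 6 mice and 14696 genes searched such values are descriptions. *Clec11a*, with a log2 fold change of 1.09 (SE 0.38, adjusted p = 0.451 in edgeR), measured 3.34, 7.79 and 6.27 CPM in HET mice and 1.54, 3.94 and 2.67 in WT mice. As for the class I sum, WT mouse 2 exceeded HET mouse 1.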

How the data were processed

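Soleus RNA of 3 HET and 3 WT mice was sequenced as single-end stranded reads. Per the labels and file headers, the authors aligned reads with STAR 2.7.3a to GRCm38.p6 and deposited raw counts made with featureCounts 2.0.3, reverse-stranded, leaving out reads that fit several places or genes. The count table's gene length, in bases of merged exons, is that of the deposited file. The authors' normalized signal, the count over 1 DESeq2 size factor per library (0.773 to 1.42), was used to find the genes. The authors' deposited log2 fold changes and p-values were not used. Genes were kept by filterByExpr (minimum count 10) and tested with genotype as the only term in edgeR 4.0.16's robust quasi-likelihood test with TMM factors (R 4.3.3), all 6 mice, Benjamini-Hochberg adjustment over 14696 genes and a threshold of 0.05. Alternatives used limma 3.58.1 and DESeq2 1.42.0. Per-mouse ratios were compared by two-sided exact permutation in SciPy 1.17.1. The fits were tested on simulated data with log2 fold changes larger than those of the 9 genes. Genes named were the 9 members, *Mustn1*, list genes past the threshold or at the ends of their list, the constitutive subunits and the 5 genes most alike; others were named after their values were seen. The members and lists were chosen with earlier results of these data known. Replicate numbers were not used to pair the mice in the main test, and p-values measure the spread between mice of unstated litters.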

Additional observations from a re-analysis of the deposited data

How the results depend on the processing

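The 9 genes kept a log2 fold change above 0 in all 126 values under the 14 alternative settings, and their median of 0.31 ran from 0.19 to 0.43 with 1 mouse left out. These values refit the same libraries for genes that follow one another. They are not separate observations, and a shared sign could hardly change between settings. The number of them past the threshold was 0 in each setting except without a filter on low counts, where it was 2. Over all genes, 21 of 14696 were higher. The count was 386 of 29081 without a filter, 218 with DESeq2, 12 with limma-voom and 6 without robust estimation. It was 6 with the GC trend removed and 0 to 77 with 1 mouse left out, the highest without WT mouse 3. With the replicate number as a block it was 114, and 98 with the GC trend removed as well. Same-numbered mice correlated at 0.203, -0.00578 and -0.0349 in their deviations. The first value was the highest of all pairs of a HET and a WT mouse. With 3 mice per genotype these values cannot decide whether the numbers pair the mice. The class II count of 2 ran from 0 to 5 over these settings, an alternative chosen after seeing the data, and was 0 without any 1 mouse except WT mouse 3, where it was 3. The difference in the *H2-K1* to *H2-D1* ratio ran from -0.0205 to 0.0709 with 1 mouse left out, and below 0 without HET mouse 3 or without WT mouse 3 (-0.00483). The immunoproteasome share differed by 1.03 to 1.94 percentage points with 1 mouse left out. The cause of these shifts was not tested. *Nlrc5*, with 33 to 121 reads per library, and *Psmb9*, with 40 to 100, had the fewest reads of the 9, and what depth adds to their spread was not tested.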
